A study of Schizosaccharomyces pombe with 8 samples.

Results

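Small RNA of the fission yeast Schizosaccharomyces pombe was compared between a strain labelled Paf1-G104R (spb2009) and wild type (spb464). The members were all elements of the deposited table, taken as the Paf1-G104R value minus the wild-type value, which used 2 of the 8 libraries of the series and 17962 of 17962 elements. Both strains, wild type included, carry ade6-hp+ in their labels, and the labels do not expand that term. In the known work of these authors it denotes a construct that makes a hairpin RNA of ade6 sequence. Reads from such a construct and reads from the ade6 gene itself cannot be told apart in these files. The labels do not give the other parts of a construct, so whether reads at the cox4 intron or nmt1 come from one was not tested. Cells were grown in YES medium at 30 °C to an OD600 of 0.5, and RNA of 18 to 28 nt was purified from 25 µg of a small RNA fraction. The question, as known from the study, was whether small RNAs can silence ade6 in mutants of the Paf1 complex. The other 6 libraries are further mutants of that complex. With 1 library per strain no difference has a replicate check, and no p-value is given.

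In fission yeast, Dicer cuts double-stranded RNA into small interfering RNAs that Argonaute carries to complementary transcripts at chromatin. An RNA-dependent RNA polymerase there makes more double-stranded RNA, and the methyltransferase Clr4 marks histone H3, which builds heterochromatin at pericentromeric repeats, telomeres and the mating-type region. The Paf1 complex travels with RNA polymerase II and acts in elongation and transcription termination. Its genes in the table are paf1, leo1, cdc73, prf1 and tpr1. Prf1 is the fission yeast counterpart of budding yeast Rtf1, and Tpr1 that of Ctr9.

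The label G104R names a change of a glycine of Paf1 to arginine. The reference sequence was read at that codon, and at the prf1 codon with the position of the label Q472Stop of another library, to set both labels beside the genes. The RefSeq genome ASM294v3 has the same chromosome lengths as the largest element ends of the table. The codon of paf1 (SPAC664.03) is GGA, which encodes glycine, in a protein of 456 residues. It lies on the forward strand at chr1:1709168-1709170, in a coding exon. The codon of prf1 (SPBC651.09c) is CAA, which encodes glutamine, in a protein of 560 residues. It lies on the reverse strand at chr2:1255874-1255876, in a coding exon. Both stretches are 30 bases of the coding strand of the reference, with the named codon in capitals.
paf1 at G104R: ttgcaggaggctctGGAtccacgcaccttg
prf1 at Q472Stop: cgggaacaagtcctCAAccttcaccttccc
The first window spans chr1:1709154-1709183 and the second spans chr2:1255861-1255890. The deposited files hold no reads, so neither mutation was looked for in the libraries.

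The deposited level of an element is log2(n + 8), where n is its read number divided by its length and scaled to the same total in each library, so the lowest level is 3. Read numbers were recovered from these levels and summed to 3139689 in the Paf1-G104R library and 6422566 in wild type, over elements that partly overlap. A read in overlapping elements counts more than once in these sums. Shares of recovered reads given below are shares of these sums, not of distinct reads. An element was compared where the higher of its 2 levels was at least 5, which 2422 elements reached, and called at a difference of at least 1, which is a 2-fold difference in n + 8. Of these, 111 elements (4.58%) were higher in the Paf1-G104R library and 237 (9.79%) were lower, 14.4% in all. The median difference of the 2422 elements was -0.11. With that median set to 0, 141 elements were higher and 184 lower, and after quantile normalization 134 were higher and 164 lower. rRNA elements took 8.54% of the summed linear level in the Paf1-G104R library, against 4.28% in wild type. With the rRNA elements left out of the total, 122 elements were higher and 216 lower, and the median of all elements compared was -0.06. Abundant structural RNA was counted mainly at elements on the opposite strand, so a level at a gene is read here as mostly antisense small RNA. That assignment was not tested for protein-coding genes or for single rRNA elements. The elements opposite rRNA genes are of other classes and stayed in the total from which the rRNA elements were left out.

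**Figure D1:**
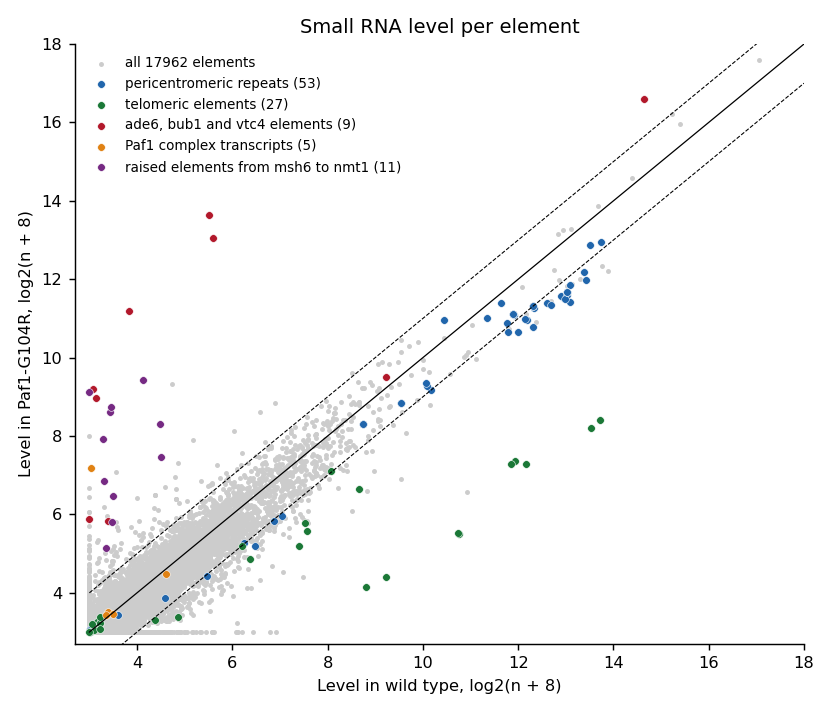
Level of each of the 17962 elements in the Paf1-G104R library (vertical axis) against wild type (horizontal axis), both log2(n + 8). The solid line marks equal levels and the dashed lines a difference of 1. The ade6, bub1 and vtc4 elements and the elements from msh6 to nmt1 lie far above the lines, and telomeric elements lie far below.

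Among the Paf1 complex genes, the library labelled Paf1-G104R held small RNA over prf1 and hardly any over paf1. The transcript of prf1 outside its UTRs had 823 reads in the Paf1-G104R library and 1 read in wild type, a level ratio of 1344 with a 95% interval of 241 to 53168. In each of the other 6 libraries it had between 1 and 4 reads. The Paf1-G104R library is thus the single one of the 8 with more than 4 reads there. The whole prf1 transcript, at chr2:1255392-1257425 on the reverse strand, had a level of 7.19 in the Paf1-G104R library and 3.03 in wild type, a difference of 4.16. In the other mutants its difference from the same wild-type library lay between -0.01 and 0.33. The signal covered the ends of the gene too. The 5′ UTR of prf1 had 30 reads in the Paf1-G104R library and 0 in wild type. With wild type set to a floor of 3 counts it was 16.3-fold higher, and the lower 95% limit of its ratio was 12.5. The 3′ UTR of prf1 had 21 reads in the Paf1-G104R library and 1 in wild type, a ratio of 34.3 with an interval of 5.52 to 1419.

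No neighbour of prf1 was called. Within 20 kb of it lay 59 elements, 11 of which were compared. Of these, 3 were higher, all of them prf1 elements, and 0 were lower. The prf1 elements lay below a level of 5 in wild type and were compared only through the Paf1-G104R library. By the same measure outside the UTRs, paf1 itself had 7 reads in the Paf1-G104R library and 7 in wild type, a ratio of 1.63 (interval 0.489 to 5.46). The paf1 transcript had a level of 3.46 in the Paf1-G104R library and 3.50 in wild type, close to the floor. For leo1 the body reads were 19 in the Paf1-G104R library and 62 in wild type, a ratio of 0.501 (interval 0.283 to 0.848). The whole leo1 transcript had 123 reads in the Paf1-G104R library and 231 in wild type. Its ratio was 0.870, and the interval of 0.693 to 1.09 includes 1. For cdc73 the body reads were 11 in the Paf1-G104R library and 8 in wild type. For tpr1 they were 28 in the Paf1-G104R library and 33 in wild type. The intervals of both ratios include 1, running from 0.823 to 6.43 for cdc73 and from 0.807 to 2.37 for tpr1. The transcripts of paf1, leo1, cdc73 and tpr1 did not reach a level of 5 in either library, so prf1 was the single Paf1 complex transcript of 5 that was compared. None of the 5 reached that level in wild type. The filter thus let prf1 in only because it was high in the Paf1-G104R library, and its call adds nothing to its reads.

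The gene that carried small RNA did not match the label of the Paf1-G104R library, nor those of the Rot1-Q472Stop and Cdc73-G313R libraries. The library labelled Rot1-Q472Stop, whose residue and position match a glutamine codon of prf1 in the reference, had 1 read over the prf1 body and 149 over cdc73. The Leo1-W157Stop library had 519 reads over leo1, and the Paf1-Q264Stop library had 182 over paf1, which are the genes those labels name. The Cdc73-G313R library had 26 reads over paf1 and 0 over cdc73. Which strain the library labelled Paf1-G104R came from was not tested, and every difference here is that of the library under this label.

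**Figure D2:**
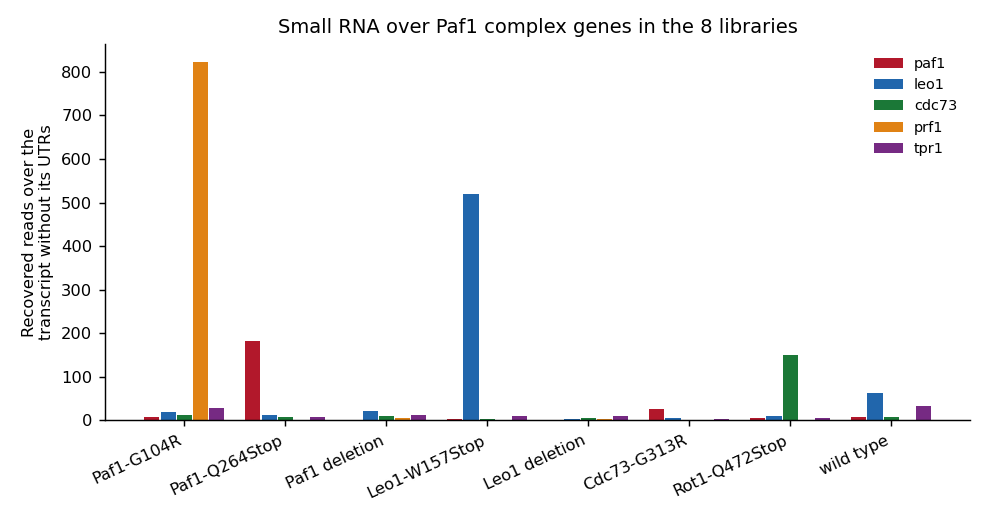
Recovered reads over the body (transcript without its UTRs) of 5 Paf1 complex genes, as bars for each of the 8 libraries, on a linear axis from 0. The Paf1-G104R library has 823 reads over prf1 and 7 over paf1, and wild type has 1 over prf1 and 7 over paf1.

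At ade6, the gene of a purine synthesis enzyme whose loss turns colonies red, both the gene and its neighbours carried more small RNA in the Paf1-G104R library. The ade6 transcript, at chr3:1316243-1318070 on the forward strand, had 566536 reads in the Paf1-G104R library and 237292 in wild type. That was 18.0% of recovered reads in the Paf1-G104R library and 3.69% in wild type. Its level was 16.61 in the Paf1-G104R library and 14.64 in wild type, a difference of 1.96, and a ratio of 3.90 with an interval of 3.88 to 3.92. After quantile normalization the difference of the ade6 transcript was 0.70, below the threshold. The 5′ UTR of ade6 showed the largest difference of all elements compared. It had a level of 13.65 with 3744 reads in the Paf1-G104R library and 5.52 with 18 reads in wild type, a ratio of 340 (interval 215 to 574). Its difference of 8.13 stood beside 2.90 to 7.85 in the other mutants. The 3′ UTR of ade6 had a level of 9.51 in the Paf1-G104R library and 9.23 in wild type, and the interval of its ratio, 0.989 to 1.49, includes 1.

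The raised region around ade6 ran over 4 genes, at chr3:1312560-1322217. Upstream lies bub1, the gene of a kinase of the spindle checkpoint, which is read from the other strand. The bub1 transcript had 24682 reads at a level of 11.18 in the Paf1-G104R library and 110 reads at 3.84 in wild type, a ratio of 367 (interval 304 to 446). The bub1 5′ UTR, the end that faces ade6, had a level of 13.06 in the Paf1-G104R library and 5.60 in wild type, and the far 3′ UTR had 5.83 in the Paf1-G104R library and 3.39 in wild type. The level in the Paf1-G104R library was thus lower at the end away from ade6. Downstream lies vtc4, which encodes the polyphosphate polymerase subunit of the VTC complex. The vtc4 transcript had 5204 reads at a level of 9.19 in the Paf1-G104R library and 6 reads at 3.07 in wild type, a ratio of 1417 (interval 651 to 3863). Its 5′ UTR had 1048 reads in the Paf1-G104R library and 3 in wild type, a ratio of 571 (interval 195 to 2772).

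The next gene, rpl3402, which encodes a protein of the large ribosomal subunit, was the last raised transcript on that side. It had a level of 6.20 with 168 reads in the Paf1-G104R library and 3.31 with 8 reads in wild type, a ratio of 34.3 (interval 17.0 to 80.8). Its 5′ UTR had 48 reads in the Paf1-G104R library and 0 in wild type, at least 26.1-fold higher. On the bub1 side the 3′ UTR of rpl2302 had 4 reads in the Paf1-G104R library and 0 in wild type, at least 2.18-fold higher, which rests on 4 reads. Of 54 elements within 20 kb of ade6, 14 were compared, 12 were higher and 0 were lower. Of all elements compared, 4.58% were higher and 9.79% lower. Among the higher ones near ade6, only the bub1 5′ UTR and the ade6 5′ UTR and transcript reached a level of 5 in wild type. The rest were compared only through the Paf1-G104R library. Elements on both strands of the chromosome were raised. The other mutants had bub1 transcript differences of 3.09 to 9.73 and vtc4 transcript differences of 0.89 to 6.75, so the Paf1-G104R differences, 7.34 at bub1 and 6.12 at vtc4, lay inside those ranges.

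A further stretch of raised small RNA lay upstream of nmt1, a thiamine-repressed gene of thiamine synthesis, on the same chromosome. It held 11 called elements of 6 genes at chr3:1827452-1839525. The nmt1 transcript had 626 reads at a level of 7.47 in the Paf1-G104R library and 88 reads at 4.50 in wild type, a ratio of 11.6 (interval 9.28 to 14.7). The nmt1 5′ UTR had a level of 8.30 in the Paf1-G104R library and 4.49 in wild type. The levels did not fall off steadily with distance from nmt1. The long non-coding RNA SPNCRNA.10, which overlaps the nmt1 start on the other strand, had 7.93 in the Paf1-G104R library and 3.28 in wild type. Farther up, hel2 had 6.85 in the Paf1-G104R library and 3.31 in wild type, and spp27, which encodes a factor of RNA polymerase I transcription, had 8.75 in the Paf1-G104R library and 3.46 in wild type. The non-coding RNA SPNCRNA.1233, which overlaps the start of spp27 on the other strand, reached 9.44 in the Paf1-G104R library, against 4.13 in wild type.

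In reads, SPNCRNA.1233 had 2205 in the Paf1-G104R library and 50 in wild type, a ratio of 72.0 (interval 54.4 to 97.4). The spp27 transcript had 2963 in the Paf1-G104R library and 34 in wild type, a ratio of 142 (interval 102 to 206). The 5′ UTR of hel2, a very short element, had 24 reads in the Paf1-G104R library and 0 in wild type, at least 13.1-fold higher. The stretch ended at msh6, which encodes a mismatch repair protein. The msh6 transcript had a level of 5.81 with 635 reads in the Paf1-G104R library and 3.48 with 68 reads in wild type. Not every element there was raised. The non-coding RNA SPNCRNA.1234 spans all of nmt1 on the other strand, and had 3403 reads at a level of 8.75 in the Paf1-G104R library and 8155 reads at 9.29 in wild type, a difference of -0.54. On the other side of nmt1 the next non-coding RNA, SPNCRNA.504, had a level of 10.39 in the Paf1-G104R library and 9.90 in wild type, a difference of 0.49. Farther downstream, the transcript of drs1, an RNA helicase of ribosome assembly, had 6.16 with 382 reads in the Paf1-G104R library and 4.36 with 123 reads in wild type, and the 3′ UTR of gut2 had 14 reads in the Paf1-G104R library and 4 in wild type. Of 56 elements within 20 kb of nmt1, 25 were compared, 13 were higher and 0 were lower. All of the higher ones lay below a level of 5 in wild type and were compared only through the Paf1-G104R library. Of all elements compared, 4.58% were higher and 9.79% lower. In the other mutants the difference at spp27 lay between 1.25 and 5.95, and the 5.30 of the Paf1-G104R library lay inside it.

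**Figure D3:**
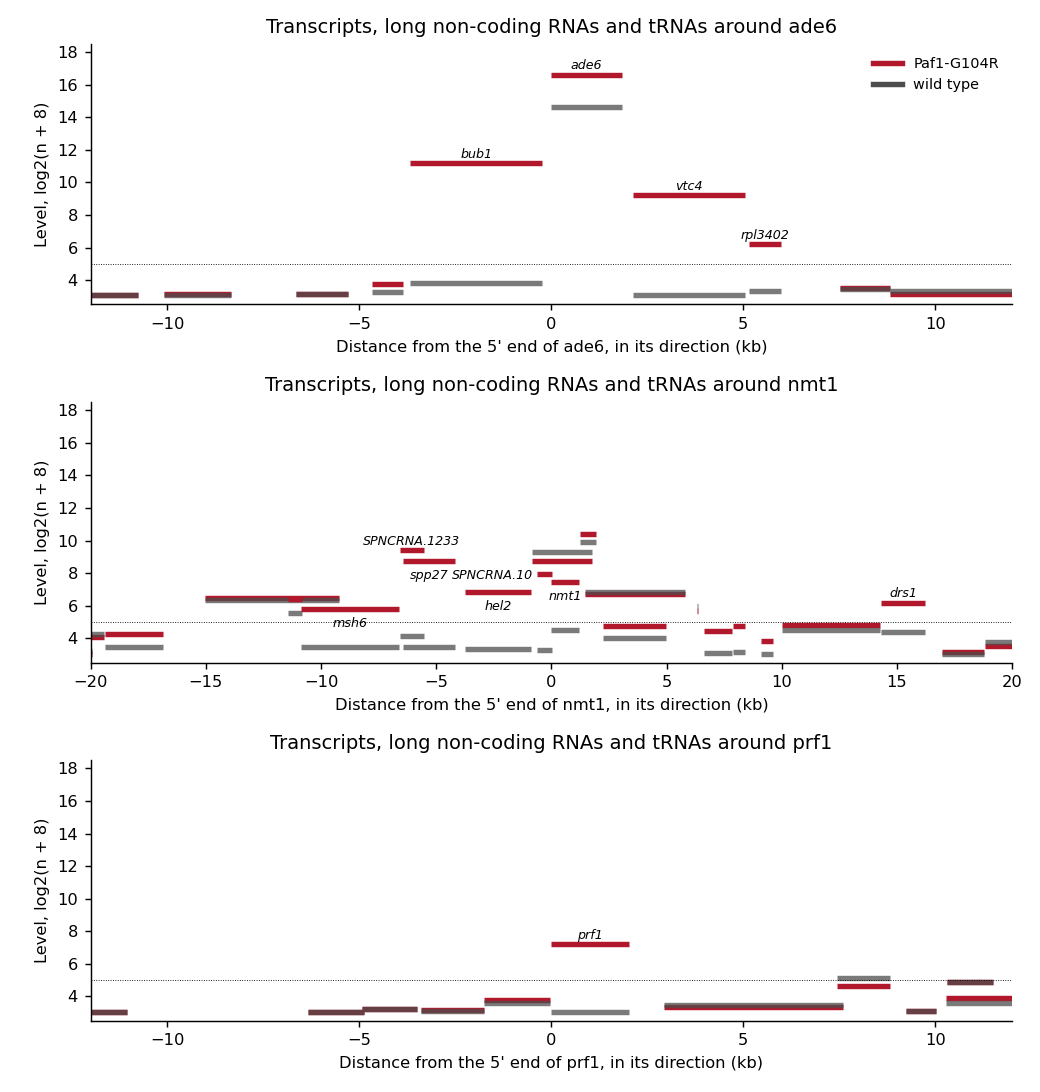
Level, log2(n + 8), of transcripts, long non-coding RNAs and tRNAs as horizontal bars at their position in kb from the 5′ end of ade6, nmt1 and prf1, in the direction of each gene, for the Paf1-G104R library (red) and wild type (grey). The dotted line marks a level of 5. Several neighbours are raised around ade6 and nmt1, and prf1 is raised alone.

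The intron of cox4, a gene of a cytochrome c oxidase subunit, held the highest level of all elements in both libraries. Whether its reads come from the cox4 gene or from a construct was not tested. It had 219412 reads at a level of 17.60 in the Paf1-G104R library, 6.99% of recovered reads. In wild type it had 244919 reads at 17.05, 3.81% of recovered reads. The difference of 0.55 was under the threshold, and quantile normalization sets an element that ranks highest in both libraries to 0. The remaining parts of cox4 differed more. Its exons without the UTRs had 1485 reads in the Paf1-G104R library and 190 in wild type, a ratio of 12.8 (interval 11.0 to 14.9). Its 5′ UTR had a level of 9.34 with 125 reads in the Paf1-G104R library and 4.74 with 6 reads in wild type, and its 3′ UTR had 7.89 with 145 reads in the Paf1-G104R library and 5.17 with 29 reads in wild type. The list of nmt1 and cox4 elements had 6 members, all compared, with 4 higher, 0 lower and a median of 2.85, and the list of ade6, bub1 and vtc4 elements had 9, all compared, with 8 higher, 0 lower and a median of 5.82. Only 3 of the 6 and 4 of the 9 reached a level of 5 in wild type, and the rest had to differ to be compared. Where a level of 5 was instead required in wild type, 24 elements of all were higher in place of 111, and the median of the nmt1 and cox4 elements compared was 0.56.

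2 further 5′ UTRs completed the 12 loci of largest positive difference, and both rest on few reads. The pal2 5′ UTR had 15 reads in the Paf1-G104R library and 0 in wild type, at least 8.17-fold higher. The gua2 5′ UTR had 21 reads in the Paf1-G104R library and 1 in wild type, a ratio of 34.3 (interval 5.52 to 1419). The transcript of ptc2, a protein phosphatase of the 2C type, had a level of 5.08 with 238 reads in the Paf1-G104R library and 3.45 with 44 reads in wild type, a ratio of 8.84 (interval 6.38 to 12.5). In the other mutants its difference ran from 0.10 to 7.95, beside 1.63 here.

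Telomeric elements showed the largest negative differences. Of 27 telomeric elements, 16 were compared, and 15 were lower and 0 were higher in the Paf1-G104R library, where 9.79% of all elements compared were lower. Their median difference was -4.55 among those compared and -1.51 over all 27, beside -0.11 for all elements compared. Over all 27 the other mutants had medians of -2.94 to -0.59 against the same wild-type library. Together they held 0.304% of recovered reads in the Paf1-G104R library and 5.84% in wild type. The helicase-like gene tlh1, at the left end of chromosome 1, had 2775 reads at a level of 7.37 in the Paf1-G104R library and 111900 reads at 11.93 in wild type, a ratio of 0.0405 (interval 0.0390 to 0.0421). Its copy tlh2, at the right end of chromosome 2, had a level of 7.29 in the Paf1-G104R library and 11.84 in wild type. The pair has near-identical sequence and their reads cannot be assigned to one copy.

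The telomeric pseudogene SPBCPT2R1.10 had 590 reads at a level of 8.21 in the Paf1-G104R library and 39549 reads at 13.53 in wild type, a difference of -5.32, the lowest of all elements compared. Its chromosome 1 counterpart SPAC212.10 had a level of 8.41 in the Paf1-G104R library and 13.71 in wild type, and SPAC212.09c and SPBCPT2R1.07c each had 5.51 in the Paf1-G104R library and 10.75 in wild type. At the right end of chromosome 1, SPAC750.08c had 21 reads at 4.14 in the Paf1-G104R library and 1522 reads at 8.80 in wild type. Other telomeric repeats differed less. The repeat unknown_3, at chr1:15829-22113, had 4.86 in the Paf1-G104R library and 6.37 in wild type, and unknown_232, at chr1:5573224-5573335, had 7.10 in the Paf1-G104R library and 8.06 in wild type, the single telomeric element compared that was not called. By chromosome the median was -3.38 over 12 elements of chromosome 1 and -4.89 over 4 of chromosome 2. The Paf1-G104R library was the lowest of the 8 in none of the 16 elements. Of 113 subtelomeric elements, 0 reached a level of 5.

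Pericentromeric repeats, from which most heterochromatic small RNA of this yeast is made, were lower by less. Of 53 repeats 48 were compared, and 23 were lower, which is 47.9% beside 9.79% for all elements compared. None was higher, and 25 were not called. Their median difference was -0.999, which sits at the threshold, and the differences ran from -1.66 to 0.52. Over all 53 the median was -0.99, and the other mutants had medians of -4.03 to -0.33 against the same wild-type library. These repeats held 30.6% of recovered reads in the Paf1-G104R library and 51.1% in wild type. With the median of all elements set to 0 the median of the repeats was -0.89, and after quantile normalization it was -0.18. The repeat unknown_65, at chr2:1610041-1611580, had 19112 reads at a level of 11.97 in the Paf1-G104R library and 85140 reads at 13.41 in wild type, a ratio of 0.367 (interval 0.361 to 0.373). The repeat with the most reads, unknown_78 on the same chromosome, had 12.96 in the Paf1-G104R library and 13.74 in wild type. Both it and unknown_77 of chromosome 3 span a tRNA gene on the other strand. The part of tRNA in their reads, and so in the shares and median of this class, was not tested. The medians of the 3 chromosomes were -1.15 over 8 repeats, -1.02 over 12 and -0.997 over 28. Copies of these repeats share reads, so their values are not independent.

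Of the 48 repeats compared, a single one had a higher level in the Paf1-G104R library. The repeat unknown_73 of chromosome 2, at chr2:1627610-1631932, had 10.95 in the Paf1-G104R library and 10.43 in wild type, a ratio of 1.43 (interval 1.41 to 1.46). It was also higher than wild type in 5 of the other mutants and lower in 1, with differences from -0.20 to 1.72. The 1.72 was in Cdc73-G313R, where the median over all pericentromeric repeats was -4.03. Which kind of RNA unknown_73 counts was not tested. The long non-coding RNAs of the centromeres were lower in 13 of the 14 compared (92.9%), of 26 in all, with 0 higher and a median of -1.23, which was -0.51 after quantile normalization. SPNCRNA.371 had 12.21 in the Paf1-G104R library and 13.89 in wild type, and SPNCRNA.232 had 12.34 in the Paf1-G104R library and 13.76 in wild type. Of 27 centromeric tRNAs 12 were compared, 3 were lower (25%, beside 9.79% for all elements) and 0 were higher, with a median of -0.94 that rests on few reads. SPCTRNALYS.10, for example, had 15 reads in the Paf1-G104R library and 62 in wild type.

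The elements that border the chromosome 1 repeats did not follow them. The boundary RNAs IRC1-L and IRC1-R lie on either side of the repeats and form an inverted pair of like sequence, whose reads cannot be assigned to one copy. IRC1-L had 9979 reads at a level of 13.25 in the Paf1-G104R library and 13079 reads at 12.93 in wild type, a ratio of 1.25 (interval 1.21 to 1.28). IRC1-R had 10225 reads at 13.14 in the Paf1-G104R library and 13441 reads at 12.83 in wild type. The neighbouring centromeric RNA nam5 had 11.88 in the Paf1-G104R library and 13.12 in wild type. The other 6 mutants had lower values than wild type at both IRC1 elements, from -3.71 to -0.17 at IRC1-L and from -3.72 to -0.18 at IRC1-R. The differences of 0.32 and 0.31 in the Paf1-G104R library are below the threshold. After quantile normalization they were 1.18 and 1.23.

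**Figure D4:**
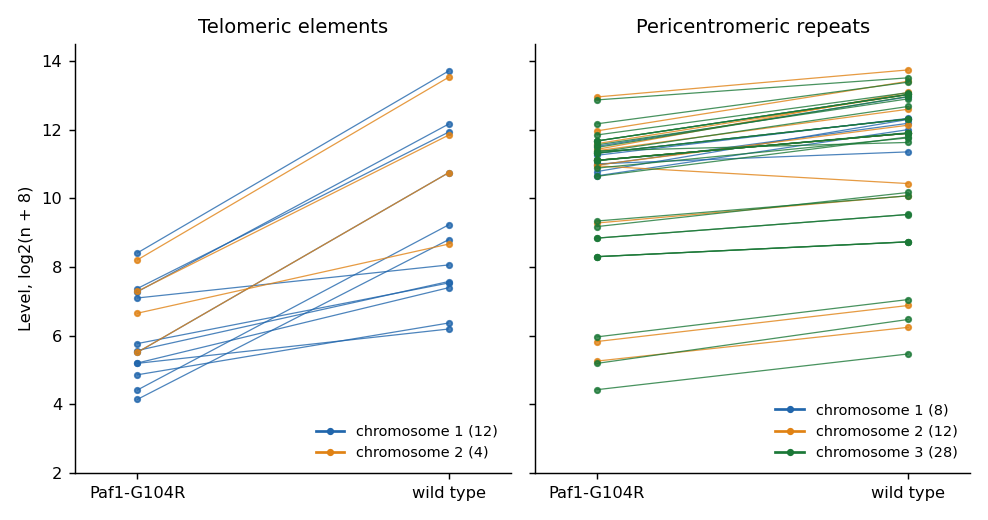
Level, log2(n + 8), of each telomeric element (16) and pericentromeric repeat (48) compared, with a line from the Paf1-G104R library (left) to wild type (right), coloured by chromosome. The telomeric lines are steep, with a median difference of -4.55, and those of the repeats are shallow, with a median of -0.999 and 1 line in the other direction.

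Outside the telomeres the largest negative difference was at the 5′ UTR of mae1, which encodes a malate transporter. The mae1 5′ UTR had 16 reads at a level of 6.58 in the Paf1-G104R library and 593 reads at 10.93 in wild type, a ratio of 0.0441 (interval 0.0250 to 0.0722). The mae1 transcript had 669 reads at 6.89 in the Paf1-G104R library and 7250 reads at 9.54 in wild type. Its difference of -2.64 was nearer to 0 than the -5.75 to -3.49 of the other mutants. The transcript of mae2, which encodes malic enzyme, had 85 reads at 4.40 in the Paf1-G104R library and 1803 reads at 7.48 in wild type, a ratio of 0.0770 (interval 0.0612 to 0.0958). The remaining 3 of the 12 loci of largest negative difference were UTRs of 4 to 11 reads in wild type and 0 in the Paf1-G104R library. They belong to vsl1, prp24 and cft2. The prp24 3′ UTR had 11 wild-type reads, which makes it at least 2.24-fold lower. For vsl1 no fold is given, as its 4 reads in wild type are near the floor.

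Most elements called lower were 3′ UTRs. Of 4760 such UTRs 1304 were compared, and 33 were higher and 129 lower, which is 9.89% beside 9.79% for all elements. Their median was -0.20. The 3′ UTRs overlapped by a transcript on the opposite strand were lower in 8.26% of 969, and the rest were lower in 14.6% of 335. These subsets also differed in length, with medians of 255 nt for the overlapped and 176 nt for the rest, and in wild-type reads, with medians of 78.0 for the overlapped and 46.0 for the rest. Of 3′ UTRs with under 20 reads 44.1% were lower, and of those with more 8.01%. The part of length and reads in the contrast was not tested. Of 4828 5′ UTRs 122 were compared, with 33 higher, which is 27.0% beside 4.58% for all elements, and 13 lower, which is 10.7% beside 9.79%. Their median was 0.21. Of the 122, 79 reached a level of 5 in wild type, and the median of those was -0.28, so the direction of this class depends on the filter. Of the 33 raised 5′ UTRs, 17 had under 20 reads in the 2 libraries together. The 5′ UTR of hsp3102 lies opposite rRNA genes and held 106004 reads in the Paf1-G104R library and 151802 in wild type, a difference of 0.19. Among 3′ UTRs of high level, that of dal81 had 12.24 in the Paf1-G104R library and 12.75 in wild type, a difference of -0.51 that was 0.66 after quantile normalization. That of trs23 had 10.49 in the Paf1-G104R library and 10.45 in wild type.

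Protein-coding transcripts had 20 higher, which is 4.49% beside 4.58% for all elements compared, and 10 lower, which is 2.25% beside 9.79%. This was of 445 compared, with a median of 0.03, or -0.12 with a level of 5 required in wild type. Long non-coding RNAs had 9 higher (3.56%) and 6 lower (2.37%) of 253, both below the shares of all elements, with a median of 0.24. Intergenic non-coding RNAs had 2 higher and 2 lower of 61 (3.28% each), also below those shares, with a median of -0.15. Introns had 3 higher (7.5%) and 9 lower (22.5%) of 40, beside 4.58% and 9.79% for all elements, with a median of -0.47. The intron of bqt1 had 68 reads at a level of 7.26 in the Paf1-G104R library and 176 reads at 7.89 in wild type. The transcript of adh1, the main alcohol dehydrogenase, had 2991 reads at 8.16 in the Paf1-G104R library and 2516 reads at 7.24 in wild type. It was 1 of 16 glycolysis and fermentation genes and the single one compared, and its difference of 0.92 was not called. The median over all 16 was 0.06.

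Elements of structural RNA genes went in different directions. By the strand reading above, the tRNA and snoRNA elements are taken to count mostly RNA antisense to those genes and not the structural RNAs themselves. For rRNA that reading rests on 2 opposite-strand elements, the transcript of hsp3102 and the 5′ UTR within it. Whether single rRNA elements, such as unknown_53, count antisense RNA or pieces of rRNA was not tested. Of all elements compared, 4.58% were higher and 9.79% lower. Of 48 rRNA elements 15 were compared, 6 were higher (40%) and 1 lower (6.67%), with a median of 0.94, while the median over all 48 was -0.01. All 5 pre-rRNA elements were compared, with 3 higher (60%), 0 lower and a median of 1.23. The pre-rRNA element unknown_2 had 2550 reads at 6.76 in the Paf1-G104R library and 1584 reads at 5.53 in wild type. At the other end of chromosome 3, unknown_171 had nearly the same reads, 2524 in the Paf1-G104R library and 1573 in wild type. The rRNA and pre-rRNA elements include such copies, so their counts and shares are not those of independent elements. The rRNA element unknown_53, at chr3:814799-814896, held most reads of the rRNA elements, with 23268 reads at 16.22 in the Paf1-G104R library and 19031 reads at 15.22 in wild type. In the other mutants it was higher by 1.05 to 3.83. Of 143 tRNAs 53 were compared, 1 was higher (1.89%) and 11 were lower (20.8%), with a median of -0.45. SPCTRNAGLN.06 had 59 reads in the Paf1-G104R library and 290 in wild type, a ratio of 0.332 (interval 0.247 to 0.441). Of 55 snoRNAs 18 were compared, with 1 higher, 1 lower (5.56% each) and a median of 0.31 (-0.09 over all 55). Of 7 snRNAs 3 were compared and 0 called.

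**Figure D5:**
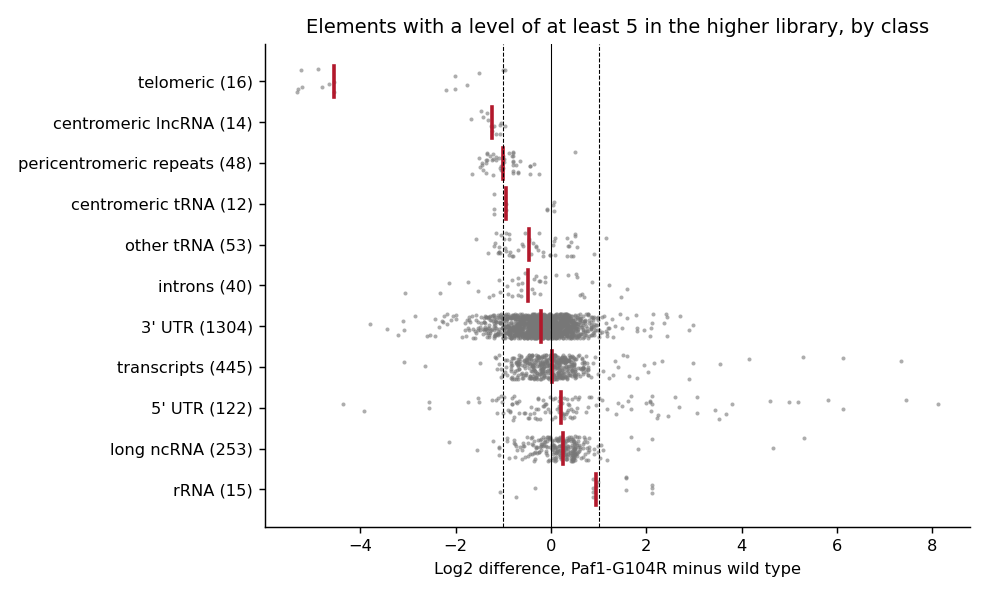
Log2 difference, Paf1-G104R minus wild type, of each element compared (grey points, spread vertically at random), by class with the number compared in brackets. Red bars are medians, and dashed lines mark -1 and 1. Telomeric elements have a median of -4.55, 3′ UTRs of -0.20 and rRNA elements of 0.94.

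Transposon-related classes and the genes of the silencing machinery had low levels in both libraries. Of 221 LTRs 8 were compared and 0 called, with a median of -0.16. Of 27 Tf2 elements 1 was compared and 0 called. None of 28 wtf elements, which are meiotic drive genes, was compared. Of 12 RNAi genes 0 reached a level of 5, and rdp1, the RNA-dependent RNA polymerase gene, had 3.92 in the Paf1-G104R library and 3.90 in wild type. Of 12 heterochromatin genes found 1 was compared. That was epe1, whose product opposes heterochromatin spreading, with 347 reads at 5.17 in the Paf1-G104R library and 1213 reads at 6.09 in wild type. Its difference of -0.91 was not called. Of 10 meiotic genes 1 was compared, dmc1, a recombinase gene, with 4.48 in the Paf1-G104R library and 5.15 in wild type. Of 7 chaperone genes found 0 were compared. Of 131 ribosomal protein genes 12 were compared, 2 were higher (16.7%, beside 4.58% for all elements) and 0 lower, with a median of 0.15. Only 10 of the 12 reached a level of 5 in wild type, and rpl3402, the raised gene near ade6, did not. In the same list rps2602 had 7.24 in the Paf1-G104R library and 7.15 in wild type. Of 10 purine synthesis genes ade6 alone was compared, and of 4 thiamine genes nmt1 and thi4 were, with thi4 at 5.49 in the Paf1-G104R library and 5.21 in wild type.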

How the data were processed

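The deposited values are on a log2 scale, 1 column for each of the 8 libraries and 17962 elements, and 0 columns lacked a sample. Per the file headers each column is 1 strain. CASAVA 1.8 and Bowtie 0.9.9.1 were used by the authors, per the submitters' processing notes. Genome build, annotation and read weighting: not given in the sources used here. From the values, each column is log2(n + 8) with a common linear total of 907489, and n behaves as reads divided by element length. The worth of 1 read was fitted for each library, after which 79.7% of the elements above 0 in the Paf1-G104R library and 84.2% in wild type gave whole reads within 0.05. Fractions were rounded. No count model was used.

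A level of 5 stands for 74.5 reads per kb in the Paf1-G104R library and 122 in wild type, so the 2 libraries differ in precision. Level ratios were computed from reads per unit of scaled level with exact Clopper-Pearson limits (95%) for the share of the summed reads found in the Paf1-G104R library. Reads amplified by PCR carry no molecular identifier here, so these intervals and the floor of 3 counts cover counting error only. A fold against that floor leaves out the counting error of the other library, so it is not a lower limit. The computation was tested on simulated data. Python 3.11.15, numpy 2.4.6, pandas 2.3.3, scipy 1.17.1 and matplotlib 3.10.9 were used.

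Gene symbols and the 2 codons came from RefSeq tables and sequence, which matched 6769 of 6932 gene elements. Lists were built from the classes of the table and from gene names. Of 13 heterochromatin genes 12 were found, and of 8 chaperone genes 7. Strand was read from elements that overlap a structural RNA gene by at least 40 nt. Elements opposite a tRNA gene had a median of 2408 reads in the Paf1-G104R library and 7767 in wild type (6 elements), and those on the same strand had 26.5 in the Paf1-G104R library and 50.8 in wild type (6 elements).

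Named were all elements of ade6, bub1, vtc4, nmt1, cox4 and the Paf1 complex genes, the 12 loci of largest difference per direction, the 4 members with the highest mean level (fewer in short lists) of each further list, and called elements within 20 kb of ade6, nmt1 and prf1. SPNCRNA.1234, unknown_3, unknown_232 and the chromosome 2 unknown_73 were chosen after their values were seen. The members and lists were chosen with earlier results of these data known, and no choice counts as independent support. Alternatives were other filters, thresholds, offsets and scalings.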

Additional observations from a re-analysis of the deposited data

How the results depend on the processing

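No paired analysis was possible because each strain has 1 library and the strains share fewer than 2 replicate numbers, and no library could be left out for the same reason. The count of elements higher in the Paf1-G104R library, 111, was 24 with a level of 5 required in wild type, 188 with no filter, 59 with a level of 6 required and 51 with a threshold of 2. The count lower, 237, was 403 with no filter, 150 with a level of 6 and 42 with a threshold of 2. The median of nmt1 and cox4 elements, 2.85, was 0.56 with the filter on wild type. With an offset of 1 in place of 8 the median of pericentromeric repeats was -1.04, of centromeric tRNAs -1.17 and of rRNA 1.01, and rRNA had 1.05 when recentred on the median of all elements. Quantile normalization gave -0.51 for centromeric long non-coding RNAs. The cause of these moves was not tested, apart from the filters and thresholds, which take in fewer or more elements. With at least 20 reads over both libraries, an alternative chosen after seeing the data, 79 elements were higher and 191 lower. No called element or median changed direction under the scalings and offsets, and the class medians that changed sign did so with other filters. Recovered reads summed to 3139689 in the Paf1-G104R library and 6422566 in wild type, and differences that rest on few reads are limited by them.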

Other observations

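The genes in these paragraphs were chosen after their values were seen. On chromosome 2, 3 neighbouring genes carried more small RNA in the Paf1-G104R library. The transcript of trp1, a gene of tryptophan synthesis at chr2:4377221-4379500, had 231 reads at a level of 5.34 in the Paf1-G104R library and 12 reads at 3.18 in wild type, a ratio of 31.4 (interval 17.7 to 61.8). The 5′ UTR of nop16, a gene of ribosome assembly, had 42 reads at 5.97 in the Paf1-G104R library and 3 reads at 3.38 in wild type, a ratio of 22.9 (interval 7.31 to 115). The 5′ UTR of arf6, which encodes a small GTPase, had 12 reads in the Paf1-G104R library and 0 in wild type. With wild type set to 3 counts it was 6.53-fold higher. Among the other mutants the trp1 difference was 3.52 in the Leo1 deletion and 0.22 in Cdc73-G313R, beside 2.17 in the Paf1-G104R library, and all share the wild-type library.

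Elsewhere the checkpoint gene rad26 had 436 reads at 5.87 in the Paf1-G104R library and 178 reads at 4.37 in wild type, nearly all of them in its 3′ UTR. The unnamed gene SPBC1347.14c had 438 reads at 8.62 in the Paf1-G104R library and 162 reads at 6.57 in wild type. The non-coding RNA SPNCRNA.832 had 517 reads at 6.65 in the Paf1-G104R library and 185 reads at 4.82 in wild type. Around the start of etr1 and the end of pda1, a gene of pyruvate dehydrogenase, levels were lower. The pda1 3′ UTR had 26 reads at 5.78 in the Paf1-G104R library and 167 reads at 7.58 in wild type, and the etr1 5′ UTR had 42 reads at 5.09 in the Paf1-G104R library and 162 reads at 6.12 in wild type. The non-coding RNA SPNCRNA.1344 had 70 reads at 4.69 in the Paf1-G104R library and 683 reads at 6.83 in wild type, a ratio of 0.167 (interval 0.129 to 0.214).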
